A study of Mus musculus with 8 samples.

Results

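A set of 134 genes was near-silent in wildtype CD8+ tumor-infiltrating lymphocytes (TILs) and present in every library of LSD1-deficient CD8+ TILs. They were chosen on their own values by a fixed rule applied to all 55335 genes listed, of which 26530 had at least 1 count in any library. Levels are in CPM, the count of a gene per 1000000 counts of its library. A gene entered when its mean was under 5 CPM in wildtype (WT), at least 3 CPM in knockout (KO) and at least 3 times the WT mean, and when each KO sample lay above each WT sample, a condition that 7.81% of the genes tested met on its own. These conditions were met by 143 genes, or 0.258% of those listed and 0.899% of the 15904 genes with a count and a WT mean under 5 CPM. The rule then left out 9 of them by name (*Sox4*, *Tnfrsf8*, *Cd40lg*, *Stac2*, *Rgmb*, *Maged1*, *Trpm6*, *Cd109* and *Anxa1*). Because the KO against WT values of all 8 libraries chose the genes, those values are given as a description and no test of that contrast is reported for any of the 134.

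The libraries are bulk RNA-seq of CD8+CD44+PD-1+ T cells sorted from MC38 tumors, a mouse colon adenocarcinoma line grown under the skin of C57BL/6 mice. WT mice were Lsd1 f/f, carrying the floxed *Kdm1a* allele alone, and KO mice were Cd4-Cre+ Lsd1 f/f. The floxed allele is therefore shared by both groups, and only KO carried Cre. The Cd4 promoter drives Cre in developing T cells, so both CD4+ and CD8+ T cells of KO mice lost LSD1 before the tumor was implanted, whereas the tumor cells and other host cells kept it. There were 4 samples a group. Cells of 2 mice were put together for every WT sample, and a KO sample stands for 1 mouse. The mice were 6 to 10 weeks old, and 10000 to 20000 cells were sorted a sample. Tumors were taken on day 18 by one description of the experiment and at 14 days by another.

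LSD1, encoded by *Kdm1a*, is a flavin-dependent demethylase that removes mono- and dimethyl marks from lysine 4 of histone H3, the marks of active and poised promoters and enhancers. It works in the CoREST complex together with histone deacetylases HDAC1 and HDAC2 and is brought to DNA by repressors such as GFI1, REST and members of the SNAI and ZEB families. CD8+ TILs that meet antigen over a long time carry PD-1 and lose function stepwise.

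Library totals ran from 11657807 to 30295406 counts, so that the floor of 3 counts corresponded to 0.099 to 0.257 CPM a library. The KO library S8 was the deepest. *Kdm1a* (chr4:136550540-136602723) was at 43.6, 45.6, 44.5 and 46.7 CPM in WT samples S1 to S4 and at 24.8, 31.9, 32.1 and 32.6 CPM in KO samples S5 to S8. All KO samples lay below all WT samples, and the transcript was reduced and not absent. These counts are per gene and not per exon, so they do not show how much of the remaining RNA carries the deletion. LSD1 protein was not measured in these libraries. Its log2 fold change was −0.55 ± 0.14 (SE), with an adjusted p of 0.0163 in edgeR's quasi-likelihood test with Benjamini-Hochberg adjustment, outside the threshold used here (fold change above 1.5 and adjusted p under 0.01). Under that threshold 447 of the 15378 genes tested rose in KO (2.91%) and 306 fell (1.99%). Counts of called genes on the gene lists below stand beside these shares. The lists were made by hand with earlier results of these data known, so no excess is read from such counts. Relatives are the other genes of a list, placed there by family or function, and many are not paralogs of a near-silent gene. Of the 12 CD8 T cell markers, *Cd44* and *Cd2* rose and 10 were not called. Their summed level ran from 5732 to 6694 CPM in WT and from 5462 to 6394 CPM in KO. In bulk samples, fewer cells of a type and less RNA per cell cannot be told apart.

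The 134 genes together took 201, 215, 234 and 219 CPM of the 4 WT libraries and 1360, 1464, 1308 and 1103 CPM of the 4 KO libraries. The mean sums were 217 ± 13.4 (SD, n = 4) and 1309 ± 152 (SD, n = 4). A single WT library held a count for 112 to 128 of the genes, and each KO library for all 134. The number at 1 CPM or more was 72 to 86 in WT libraries and 133 to 134 in KO libraries. The median gene of the set had a mean of 1.25 CPM in WT (range 0 to 4.73) and 6.89 CPM in KO (range 3.00 to 51.2). Sizes of change are given as a log2 ratio, log2 of (mean KO + 0.5 CPM) over (mean WT + 0.5 CPM). This ratio had a median of 1.95 over the set and ran from 1.30 to 4.47, and the 0.5 CPM added to both means understates the change of the lowest genes. As a description of a contrast that the rule used, 75 of the 133 genes that entered the edgeR fit passed its threshold for a rise, against 2.91% of all genes tested, and nothing is read from that count.

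**Figure D1:**
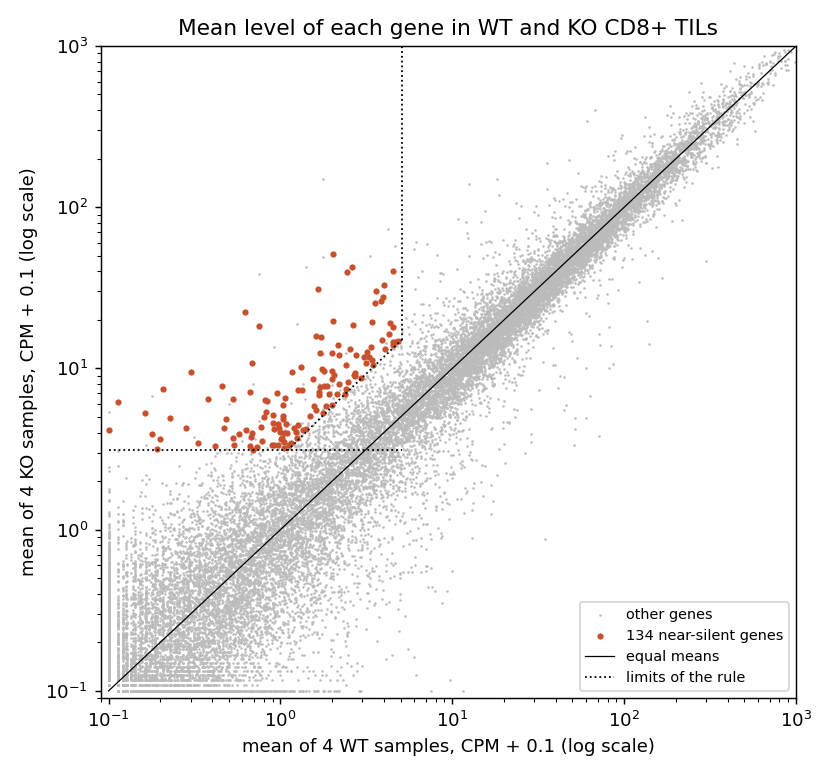
Mean level of each gene in 4 WT samples (horizontal axis) and 4 KO samples (vertical axis), as CPM + 0.1 on log scales; grey points are other genes, orange points the 134 near-silent genes, and dotted lines the limits of the rule. The orange points fill the corner above the dotted lines, from 3.00 to 51.2 CPM in KO and from 0 to 4.73 CPM in WT.

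The set grades into the genes around it. *I830127L07Rik* and *Syngr3* were just inside the ratio limit, both at 3.02 times the WT mean, and *Kcnj8* at 2.99 and *Gm26583* at 2.98 times were just outside. For the WT limit, *Gm16310* at 4.73 and *Cd4* at 4.57 CPM were inside, and *Mcoln2* and *Ddr1*, both at 5.01 CPM, were outside. *Amn* at 3.00 and *Xkrx* at 3.06 CPM in KO were inside the KO limit, and *Gm37298* and *Gm42921*, both at 2.97 CPM, were outside. Near-silent covers a range of WT levels: 57 genes had a WT mean under 1 CPM, and 22 had one of 3 CPM or more. A total of 95 genes had a count in every WT library, 25 were at 0 in 1 of them, 8 in 2, 5 in 3, and *Dnajc6* in all 4.

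The gene with the highest KO level was *Msrb3* (chr10:120781096-120899101, minus strand), a methionine sulfoxide reductase that repairs oxidised proteins. It was at 2.55, 3.10, 0.425 and 1.63 CPM in WT samples S1 to S4 and 62.5, 49.9, 66.9 and 25.6 CPM in KO samples S5 to S8. Every KO sample was far above every WT sample, S8 was the lowest of the KO samples, and the log2 ratio was 4.41. *Hrh4*, the histamine receptor found mainly on blood cells, was at 2.72, 1.37, 2.21 and 3.69 CPM in WT samples S1 to S4 and 62.1, 35.3, 39.1 and 33.6 CPM in KO samples S5 to S8. The groups stood well apart, with S5 the highest KO sample and a log2 ratio of 3.84. *Cdc42bpb* (chr12:111292976-111377718, minus strand), a kinase downstream of the small GTPase CDC42 that acts on the actin cytoskeleton, was at 4.88, 2.68, 6.29 and 3.86 CPM in WT samples S1 to S4 and 45.1, 41, 37.2 and 36.7 CPM in KO samples S5 to S8. Its KO samples lay close together and its log2 ratio was 3.04.

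*Vcan* (chr13:89655312-89742509, minus strand), which encodes the matrix proteoglycan versican, was at 1.19, 4.52, 3.06 and 0.515 CPM in WT samples S1 to S4 and 38.5, 55.2, 28.1 and 36.9 CPM in KO samples S5 to S8. The lowest KO value was several times the highest WT value, and the log2 ratio was 3.83. *Gpr15* (chr16:58717433-58719070, minus strand), a chemoattractant receptor known for homing of T cells to the large intestine, was at 6.07, 2.58, 2.81 and 4.20 CPM in WT samples S1 to S4 and 23.6, 42.7, 32.8 and 31.8 CPM in KO samples S5 to S8. It was low in all WT samples and highest in KO sample S6, with a log2 ratio of 2.91. *Cd24a* (chr10:43578284-43584265, plus strand), a glycosyl-phosphatidylinositol-anchored surface protein of immature lymphocytes and many epithelia, was at 1.02, 2.10, 2.55 and 0.515 CPM in WT samples S1 to S4 and 20.1, 36.2, 24.9 and 42 CPM in KO samples S5 to S8. Here S8 was the highest KO sample and not the lowest, and the log2 ratio was 3.93.

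*Gstt1*, a glutathione transferase, was at 2.89, 4.16, 2.81 and 4.20 CPM in WT samples S1 to S4 and 44.3, 26.7, 31.7 and 18.4 CPM in KO samples S5 to S8. Its KO samples spread from S5 down to S8 without touching WT, at a log2 ratio of 2.94. *Atp1b1* (chr1:164437109-164458355, minus strand), the beta subunit of the sodium pump, was at 2.55, 3.74, 6.29 and 2.74 CPM in WT samples S1 to S4 and 24.7, 32.6, 24.8 and 28 CPM in KO samples S5 to S8. The KO values were tight and the log2 ratio was 2.69. *Trat1* (chr16:48730774-48772021, minus strand), a transmembrane adaptor that associates with the T cell receptor, was at 3.52, 3.95, 3.91 and 3.52 CPM in WT samples S1 to S4 and 32, 20.2, 23.7 and 28.2 CPM in KO samples S5 to S8. It had the most even WT values of these genes and a log2 ratio of 2.65.

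*Cd22*, an inhibitory sialic acid receptor best known from B cells, was at 1.19, 1.95, 4.59 and 6.00 CPM in WT samples S1 to S4 and 30.6, 15.1, 15.9 and 40.5 CPM in KO samples S5 to S8. S8 and S5 were high and S6 and S7 lower, with a log2 ratio of 2.73. *Dsp* (chr13:38151294-38198577, plus strand), desmoplakin, the protein that ties desmosomes to keratin filaments, was at 0.681, 1.42, 0 and 0 CPM in WT samples S1 to S4 and 16.4, 22.7, 29.4 and 20.6 CPM in KO samples S5 to S8. It was absent from the counts of both S3 and S4, and its log2 ratio of 4.47 was the highest of the 134 with 0.5 CPM added. *Atp9a*, a phospholipid flippase of endosomes, was at 0.284, 2.42, 3.06 and 1.97 CPM in WT samples S1 to S4 and 21.8, 20.4, 21 and 14.7 CPM in KO samples S5 to S8. S5 to S7 were nearly equal, S8 was lower, and the log2 ratio was 3.04. These 12 genes held 29.6% of the summed KO level of the set.

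**Figure D2:**
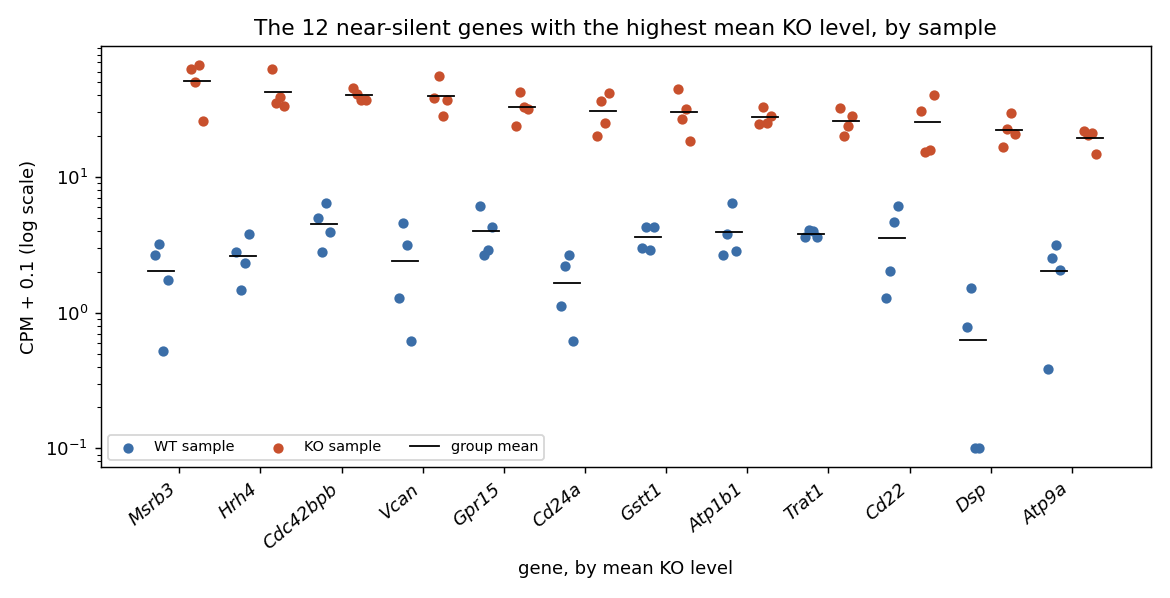
CPM + 0.1 on a log scale (vertical axis) of the 12 near-silent genes with the highest mean KO level (horizontal axis); blue points are the 4 WT samples, orange points the 4 KO samples, and bars the group means. For each gene the KO points lie above the WT points, and *Dsp* has 2 WT samples at 0 CPM.

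Promoter sequences of 4 of these coding genes are shown because they span what the set contains, from dense to nearly absent CG pairs. Each is the 250 bases before the start site given by RefSeq (GRCm38.p6), read 5′ to 3′ on the gene's own strand, with CG pairs in capitals. *Cdc42bpb* (chr12:111377719-111377968, minus strand) holds 38 CG pairs at 74.4% G and C, and *Atp1b1* (chr1:164458356-164458605, minus strand) holds 24 at 70.4%. *Trat1* (chr16:48772063-48772312, minus strand) holds 1 CG pair at 35.2% G and C, and *Ermn* (chr2:58052865-58053114, minus strand), which encodes the actin-binding protein ermin of oligodendrocytes, holds 3 at 47.2%.
Cdc42bpb: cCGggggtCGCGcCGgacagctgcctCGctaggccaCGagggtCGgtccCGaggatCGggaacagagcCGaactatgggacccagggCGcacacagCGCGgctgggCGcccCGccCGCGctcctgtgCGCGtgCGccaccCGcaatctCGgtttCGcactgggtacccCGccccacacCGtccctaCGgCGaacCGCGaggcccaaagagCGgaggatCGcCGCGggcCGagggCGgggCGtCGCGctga
Atp1b1: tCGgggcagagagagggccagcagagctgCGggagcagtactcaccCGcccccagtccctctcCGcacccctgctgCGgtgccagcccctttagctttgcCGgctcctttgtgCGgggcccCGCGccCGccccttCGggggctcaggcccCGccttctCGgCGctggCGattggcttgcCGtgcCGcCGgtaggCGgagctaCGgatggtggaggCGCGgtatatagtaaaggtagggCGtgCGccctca
Trat1: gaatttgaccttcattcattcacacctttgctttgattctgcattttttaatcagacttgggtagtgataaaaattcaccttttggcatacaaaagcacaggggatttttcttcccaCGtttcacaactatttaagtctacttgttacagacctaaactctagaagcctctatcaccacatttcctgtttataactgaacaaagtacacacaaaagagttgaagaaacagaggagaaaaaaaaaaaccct
Ermn: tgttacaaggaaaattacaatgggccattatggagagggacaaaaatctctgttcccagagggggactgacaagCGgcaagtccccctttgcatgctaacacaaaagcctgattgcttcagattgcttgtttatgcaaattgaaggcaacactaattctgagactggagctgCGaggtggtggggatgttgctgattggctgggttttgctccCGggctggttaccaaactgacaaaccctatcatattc

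*Ermn* was at 0.114, 0.316, 0 and 0 CPM in WT samples S1 to S4 and 8.12, 12.5, 6.26 and 2.71 CPM in KO samples S5 to S8, so that both S3 and S4 were at 0 and S8 was the lowest KO sample. Over the set, 85 of the 134 genes (80 of the 102 coding genes) had a RefSeq window of 300 bases, from 250 before to 50 after the start. The median window held 12 CG pairs, against 15 in 1970 other tested genes with a WT mean under 5 CPM, 19 in 276 other genes that rose in KO, 21 in 9717 tested genes and 7 in all 27025 windows. Windows with 0 to 2 CG pairs made up 15.3% (13) of the set, 8.43% of the other low genes, 5.80% of the other genes that rose and 23.8% of all windows. Windows rich in CG pairs, with at least 55% G and C and an observed-to-expected CG ratio of at least 0.65, made up 38.8% (33) of the set, 39.9% of the other low genes, 47.8% of the other genes that rose and 28.5% of all windows. These shares describe the letters in the windows, and no methylation or binding was measured.

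**Figure D3:**
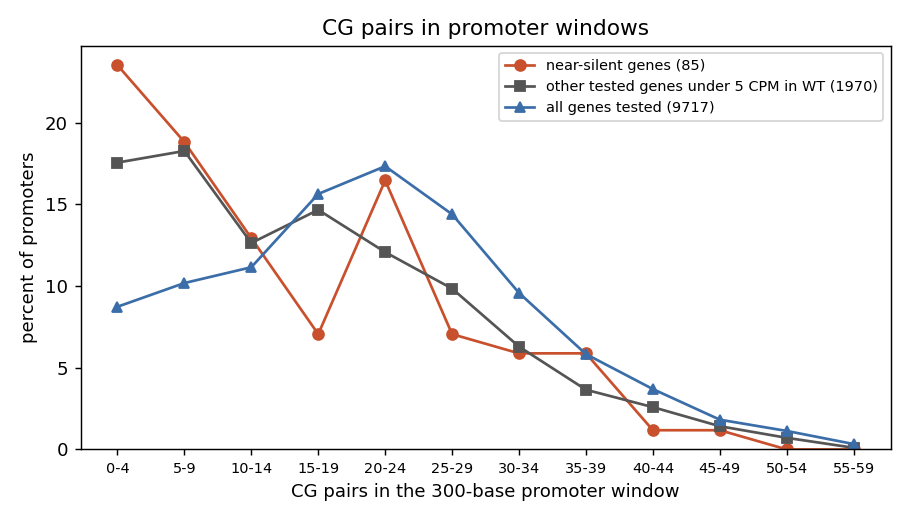
Percent of promoter windows (vertical axis) by number of CG pairs in the 300-base window (horizontal axis, bins of 5) for 85 near-silent genes, 1970 other tested genes under 5 CPM in WT and 9717 tested genes. The near-silent genes and the other low genes are most frequent at 0 to 9 CG pairs, and the tested genes at 15 to 29.

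Short motifs of factors that work with LSD1 or in T cells were counted in the same windows on both strands. The E-box CAGGTG, read by ZEB and SNAI repressors, was in 22 of the 85 windows (25.9%), in 21.1% of the other low genes and in 20.03% of all windows. The core AAATCA, read by GFI1, was in 10 (11.8%), 8.68% and 14.3%. The RUNX core TGTGGT was in 17 (20%), 14.3% and 16.9%. The TCF and LEF core CTTTGA was in 8 (9.41%), 14% and 16.2%, the AP-1 motif TGANTCA in 5 (5.88%), 5.94% and 7.93%, and the ETS core CCGGAA in 9 (10.6%), 18% and 15.2%. Each motif was counted on its own, and a match is not a bound site. Among the sequences shown, *Trat1* holds CTTTGA and TGTGGT once each, and *Cdc42bpb*, *Atp1b1* and *Ermn* hold none of the 6.

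The machinery that recruits LSD1 was expressed in these cells, and 3 of 26 genes on the list of complex members and recruiters rose. *Gfi1*, the zinc finger repressor that binds LSD1 through its SNAG domain, went from 39 ± 3.8 to 114 ± 9.18 CPM (SD, n = 4; log2 fold change 1.57 ± 0.12 SE, adjusted p = 2.4e-07 in edgeR's quasi-likelihood test). *Bcl6*, a repressor of germinal centre B cells and memory T cells, went from 23.1 ± 5.71 to 40.2 ± 3.46 CPM (log2 fold change 0.82 ± 0.16 SE, adjusted p = 0.00292). *Gse1*, a CoREST-associated protein, went from 98.3 ± 9.32 to 151 ± 16 CPM (log2 fold change 0.64 ± 0.11 SE, adjusted p = 0.00131). None of the 26 fell, 21 were not called, and 2 were too low to test. Of all genes tested 2.91% rose. The median log2 fold change of the list was 0.12, against −0.01 over all genes tested, and none of its genes was in the near-silent set.

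Cell surface receptors of the G protein-coupled family supplied 3 near-silent genes from a list of 16. Beside *Hrh4* and *Gpr15* this was *Bdkrb2*, the constitutive bradykinin receptor, at 0.227, 0.368, 0 and 0.515 CPM in WT samples S1 to S4 and 7.03, 6.66, 7.85 and 3.86 CPM in KO samples S5 to S8. It was at or near 0 in WT and nearly even in 3 KO samples, with S8 lower, and the log2 ratio was 3.14. Per length of exon, *Hrh4* at 26.1 and *Gpr15* at 19.98 RPKM in KO were above *Bdkrb2* at 1.67 RPKM. Of the 13 relatives outside the set, none rose or fell, 10 were not called and 3 were not tested. *Hrh2*, the histamine receptor of gastric acid secretion, was at 17.9 ± 4.55 CPM in WT and 12.1 ± 2.88 CPM in KO (adjusted p = 0.192, edgeR). *Bdkrb1* and *Hrh1* were close to 0 in both groups. The relatives' median log2 fold change was 0.06.

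Adhesion and epithelial genes gave 7 near-silent genes of a list of 17. Besides *Dsp* and *Cd24a* these were *Mpzl2*, *Ovol2*, *Lgals7*, *Rnf39* and *Xkrx*. *Mpzl2*, an immunoglobulin-like adhesion protein of thymic epithelium, was at 0.624, 1.58, 1.45 and 2.14 CPM in WT and 10.1, 8.35, 6.09 and 9.34 CPM in KO. *Ovol2*, a zinc finger factor that maintains epithelial identity, was at 0.908, 0.158, 1.19 and 0.601 CPM in WT and 5.74, 7.84, 9.60 and 1.95 CPM in KO. Its KO samples S5 to S7 were several times S8, and the groups still did not overlap. *Lgals7*, the galectin of stratified epithelia, was at 0, 0.316, 0 and 0 CPM in WT and 4.58, 4.30, 2.25 and 4.23 CPM in KO. *Rnf39* was at 0.738, 0.158, 0.425 and 0.429 CPM in WT and 3.87, 1.86, 4.68 and 2.67 CPM in KO. Except for S2, WT held no read of *Lgals7*, and *Rnf39* was low but detected in every library.

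*Xkrx*, a member of the XK-related membrane protein family, was at 0, 0.105, 0.255 and 0 CPM in WT and 6.25, 0.590, 2.17 and 3.23 CPM in KO, the widest spread among KO samples of the 134 genes, and it alone was too low for the edgeR fit. Of the 10 relatives outside the set, *Ddr1*, a collagen receptor kinase, rose from 5.01 ± 1.57 to 17.3 ± 2.92 CPM (log2 fold change 1.81 ± 0.26 SE, adjusted p = 0.000151, edgeR), and *Mpzl3* rose from 23.9 ± 6.50 to 44.5 ± 8.33 CPM (log2 fold change 0.93 ± 0.18 SE, adjusted p = 0.00238). None fell, 6 were not called and 2 were not tested, with a median log2 fold change of 0.70. The desmosomal partner *Pkp2* was at 1.23 ± 0.283 CPM in WT and 4.49 ± 2.72 CPM in KO (adjusted p = 0.0606). *Cdh1*, E-cadherin, was at 19.7 ± 7.79 and 24.4 ± 4.05 CPM (adjusted p = 0.411). Among the defining epithelial and tumor markers, *Krt8*, *Krt19*, *Cdx2* and *Esrp1* were at 0 in all libraries, and *Epcam* was at 0.407 ± 0.432 CPM in WT and 0.410 ± 0.499 CPM in KO. None of the 14 markers was called. Their summed level, most of it *Cdh1* and *Lgals4*, ran from 21.8 to 37.4 CPM in WT and from 33.8 to 44.5 CPM in KO.

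Extracellular matrix genes included *Vcan*, *Ltbp4* and *Crispld2* of a list of 12. *Ltbp4*, which stores latent TGF-beta in the matrix, was at 3.18, 2.10, 3.40 and 3.17 CPM in WT and 14.2, 14.8, 11.2 and 6.70 CPM in KO. *Crispld2*, a secreted cysteine-rich protein, was at 0.851, 0.737, 0.765 and 0.858 CPM in WT and 5.42, 8.01, 5.68 and 0.990 CPM in KO. WT values of *Crispld2* were nearly equal, and S8, at 0.990 CPM, was only just above them while the other KO samples were several times higher. Of 9 relatives, *Nid1*, nidogen of basement membranes, rose from 6.45 ± 0.702 to 24.9 ± 8.93 CPM (log2 fold change 1.95 ± 0.24 SE, adjusted p = 4.46e-05, edgeR). None fell, 2 were not called and 6 were not tested, with a median log2 fold change of 1.29 over the 3 tested. *Hapln1*, which encodes the link protein that joins versican to hyaluronan, lies 43660 bases from *Vcan*. It was at 0 in all WT samples and at 2.20 ± 0.758 CPM in KO (adjusted p = 0.00152, edgeR).

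From a hand-made list of 21 transcription regulators, which does not cover all those in the set, 4 were near-silent genes: *Lhx2*, *Hif3a*, *Npas2* and *Samd11*. *Lhx2*, a homeodomain factor of forebrain, eye and hair follicle, was at 0.0567, 1.37, 0.765 and 0.686 CPM in WT and 3.61, 5.48, 6.85 and 5.05 CPM in KO. *Hif3a*, a hypoxia-inducible factor subunit, was at 0, 0, 0.255 and 0 CPM in WT and 5.80, 5.73, 4.93 and 4.23 CPM in KO. WT held 3 reads of it, all in S3, and its KO samples were close to each other, at a log2 ratio of 3.33. *Npas2*, a circadian factor related to CLOCK, was at 0, 0.0526, 0.680 and 0 CPM in WT and 2.26, 6.32, 3.42 and 4.65 CPM in KO. *Samd11*, known from photoreceptors, was at 3.69, 3.16, 3.23 and 2.92 CPM in WT and 16.8, 14.7, 13 and 9.18 CPM in KO, with even WT values. For each of these genes all KO samples were above WT, but *Hif3a* and *Npas2* started from almost no reads and *Samd11* from a steady low level. *Samd11* partly overlaps *Noc2l* on the opposite strand (80.5 CPM in WT and 60.9 CPM in KO, not called). The strand setting of the counts is not given in the sources used here, so the low WT level of *Samd11* is uncertain.

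Of the 17 relatives on that list, 5 passed the threshold for a rise, against 2.91% of all genes tested. This count includes *Sox4*, which met the conditions of the rule. Another 1 fell, 9 were not called, 1 was not tested and 1 was not listed. *Sfmbt2* rose from 6.57 ± 2.22 to 39.9 ± 1.57 CPM (log2 fold change 2.64 ± 0.22 SE, adjusted p = 5.85e-07, edgeR) and *Tle1*, a Groucho corepressor, from 5.93 ± 0.845 to 31 ± 4.76 CPM (log2 fold change 2.41 ± 0.20 SE, adjusted p = 6.38e-07). *Msc*, a basic helix-loop-helix repressor, and *Sfmbt1* also rose, by 1.74 and 0.64 on the log2 scale, and the fifth was *Sox4*, which met the conditions of the rule and was left out by name, so nothing is read from its call. *Epas1*, an oxygen-sensitive factor of the hypoxia pathway, fell by 2.19 on the log2 scale, from 52.7 ± 14.8 to 11.5 ± 4.99 CPM (adjusted p = 3.39e-05). Myeloid markers fell as well (11 of 18, median log2 fold change −2.65), and their part in the *Epas1* values was not tested. *Tcf7*, the factor of stem-like T cells, was at 98.6 ± 15.5 and 67.1 ± 18.9 CPM (adjusted p = 0.0633), and *Lef1* at 31.4 ± 4.77 and 50.7 ± 12.3 CPM (adjusted p = 0.0206), neither called. The median log2 fold change of the tested relatives, *Sox4* included, was 0.47.

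Lipid and calcium signalling was represented by *Plcd1*, *Pde4c*, *Cacnb3*, *Osbpl1a* and *Epn2*, of a list of 16. *Plcd1*, a phospholipase C, was at 3.46, 4.16, 7.06 and 2.92 CPM in WT and 13.1, 15.6, 16 and 13.5 CPM in KO, with the narrowest KO spread of the genes at 10 CPM or more, and *Epn2*, an endocytic adaptor, was nearly as narrow at 1.48, 0.894, 1.70 and 5.66 CPM in WT and 11.7, 12.3, 14.9 and 13.4 CPM in KO. *Cacnb3*, a calcium channel beta subunit, was at 7.38, 3.26, 2.81 and 3.60 CPM in WT and 13.4, 17.3, 22 and 23.6 CPM in KO. *Pde4c*, a phosphodiesterase that breaks down cyclic AMP, was at 5.50, 2.31, 4.34 and 3.09 CPM in WT and 17.5, 22.9, 8.68 and 10.7 CPM in KO. *Osbpl1a*, an oxysterol-binding protein, was at 0.114, 2.37, 1.02 and 2.92 CPM in WT and 16.5, 8.35, 9.10 and 15.2 CPM in KO. Its S5 and S8 were high and S6 and S7 lower. Of the 11 relatives, 4 rose, against 2.91% of all genes tested, none fell, 3 were not called and 4 were not tested. The median log2 fold change was 1.41 over those tested, on a list made with earlier results known. The 4 were *Plcl1* (7.05 ± 2.63 to 59.1 ± 12.8 CPM, log2 fold change 3.05 ± 0.25 SE, adjusted p = 5.6e-07, edgeR), *Sestd1* (6.19 ± 0.212 to 37 ± 9.21 CPM), *Pde4a* (18.6 ± 1.15 to 51.2 ± 10.9 CPM) and *Pde4d* (149 ± 20.8 to 286 ± 24.2 CPM).

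Ion and membrane transport added *Fxyd7*, *Mcoln3* and *Gabrr1* to *Atp1b1* and *Atp9a*, of a list of 16. *Fxyd7*, a small regulator of the sodium pump known from neurons, was at 1.02, 1.05, 1.36 and 0.858 CPM in WT and 12.1, 8.77, 11 and 5.58 CPM in KO. *Mcoln3*, an endolysosomal cation channel, was at 0, 1.21, 0.425 and 1.29 CPM in WT and 2.97, 9.95, 4.84 and 6.80 CPM in KO. *Gabrr1*, a rho subunit of GABA receptors, was at 0.681, 0.368, 0.680 and 0 CPM in WT and 4.77, 2.87, 4.84 and 1.95 CPM in KO. All 3 were under 1.5 CPM in every WT sample. *Mcoln2*, which lies 8027 bases from *Mcoln3* on the same strand and missed the set by its WT level, rose from 5.01 ± 0.856 to 23.0 ± 4.87 CPM (log2 fold change 2.22 ± 0.22 SE, adjusted p = 5.23e-06, edgeR). It was the 1 called gene of 11 relatives, with 8 not called and 2 not tested. Their median log2 fold change was 0.16.

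A list of 14 redox and metabolic enzymes, which takes in a protease inhibitor, held *Msrb3*, *Gstt1*, *Fads2* and *Serpinb1a*. *Fads2*, a fatty acid desaturase, was at 0.340, 1.21, 2.21 and 1.12 CPM in WT and 8.90, 11.6, 9.02 and 10.9 CPM in KO, with even KO values. *Serpinb1a*, an inhibitor of neutrophil elastase, was at 2.61, 1.21, 3.06 and 1.37 CPM in WT and 9.61, 10.5, 18.5 and 17.2 CPM in KO, with S7 and S8 the higher KO samples. Of 10 relatives, *Gstt3*, 2399 bases from *Gstt1*, rose from 4.85 ± 0.932 to 14.4 ± 4.94 CPM (log2 fold change 1.57 ± 0.29 SE, adjusted p = 0.00163, edgeR). *Galm*, galactose mutarotase, rose from 5.98 ± 1.27 to 18.7 ± 3.65 CPM (log2 fold change 1.65 ± 0.23 SE, adjusted p = 0.000148). None fell, 7 were not called and 1 was not tested, with a median log2 fold change of 0.39. *Gstt1* and *Gstt3* are paralogs side by side, and how shared reads were counted is not given in the sources used here.

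From a list of 18 genes better known from neurons or glia, again not complete for the set, 6 were near-silent genes: *Rtn1*, *Dnajc6*, *Tmeff2*, *Syngr3*, *Ermn* and *Plxnb1*. *Dnajc6* (chr4:101496648-101642799, plus strand), auxilin, which strips clathrin from vesicles, was at 0, 0, 0 and 0 CPM in WT samples S1 to S4 and 2.39, 4.05, 5.18 and 4.69 CPM in KO samples S5 to S8. With 0 counts in WT and a group floor of 3 counts (0.05 CPM), it was at least 83.1-fold higher over the pooled KO counts. *Tmeff2*, a transmembrane protein of brain and prostate, was at 0, 0.0526, 0 and 0 CPM in WT and 11, 6.16, 3.09 and 4.13 CPM in KO. WT held 1 read of it, and KO held 171, 73, 37 and 125 reads. *Rtn1*, a reticulon, was at 0.454, 0.158, 0.935 and 0.172 CPM in WT and 10.3, 3.96, 6.85 and 4.32 CPM in KO. S5 was the highest KO sample of both *Tmeff2* and *Rtn1*.

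*Syngr3*, a synaptic vesicle protein, was at 2.55, 2.95, 2.21 and 3.69 CPM in WT and 9.93, 8.69, 8.10 and 7.76 CPM in KO, and *Plxnb1*, a semaphorin receptor, was at 2.67, 5.37, 3.57 and 6.00 CPM in WT and 20.6, 18, 15.9 and 16.9 CPM in KO. Both had even KO values and reads in every WT sample, where *Plxnb1* varied more. Of 12 relatives, *Nsg2*, an endosomal protein of neurons, rose from 11.9 ± 2.50 to 81.1 ± 2.39 CPM (log2 fold change 2.79 ± 0.16 SE, adjusted p = 1.06e-08, edgeR). *Plxnb2* fell by 2.23 on the log2 scale, from 21.2 ± 6.48 to 4.50 ± 2.26 CPM (adjusted p = 0.00013), opposite in direction to *Plxnb1*. Myeloid markers fell as well (11 of 18), and their part in the *Plxnb2* values was not tested. Another 3 relatives were not called, and 7, among them *Snap25*, *Nsg1* and *Syp*, were too low to test. *Snap25* and *Nsg1* were at 0 in all 8 libraries. The median log2 fold change of the tested relatives was −0.15.

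A mixed list of 17 genes of T cell signalling, kinase signalling and membrane traffic held 6 near-silent genes: *Trat1*, *Prr5*, *Cdc42bpb*, *Arfgef3*, *Gorasp1* and *Wnt10a*. *Arfgef3*, a guanine exchange factor relative, was at 2.33, 5.10, 2.89 and 2.83 CPM in WT and 12.8, 30.2, 17.9 and 16.5 CPM in KO. *Prr5*, a subunit of the mTOR complex that phosphorylates AKT, was at 1.02, 1.42, 0.595 and 0.686 CPM in WT and 6.45, 3.79, 5.76 and 3.96 CPM in KO. *Wnt10a*, a Wnt ligand, was at 0.965, 0.421, 0 and 0.0858 CPM in WT and 4.32, 6.41, 2.09 and 3.83 CPM in KO. All 3 were highest in S5 or S6. *Gorasp1*, a Golgi stacking protein, was at 2.78, 1.79, 4.34 and 1.2 CPM in WT and 18.5, 24.8, 18.2 and 12.8 CPM in KO, but its gene model spans *Cx3cr1* on the same strand (151 CPM in WT and 127 CPM in KO, not called), and its reads are therefore uncertain. Of the 11 relatives *Igf1r*, the insulin-like growth factor receptor, rose from 5.02 ± 1.82 to 40.8 ± 7.36 CPM (log2 fold change 3.00 ± 0.25 SE, adjusted p = 5.56e-07, edgeR), and 10 were not called. Their median log2 fold change was 0.20.

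**Figure D4:**
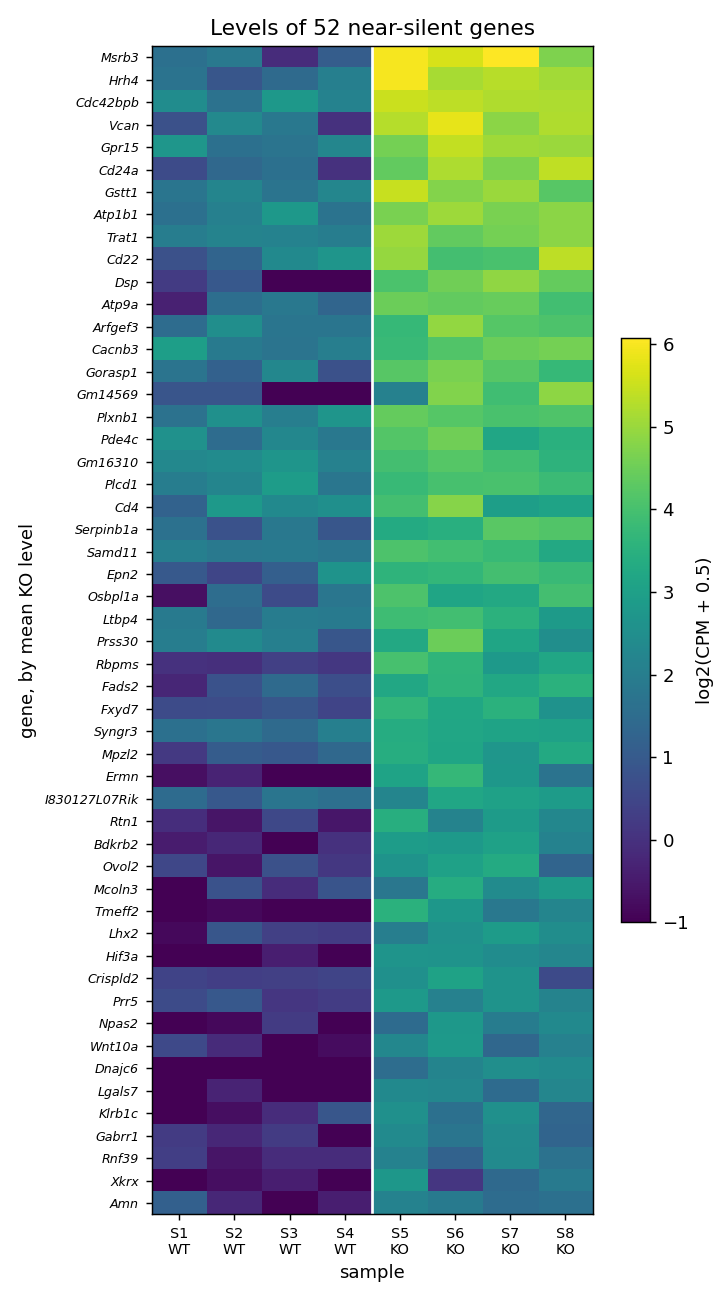
Level of 52 named near-silent genes (rows, ordered by mean KO level) in each WT and KO sample (columns), as log2(CPM + 0.5) on the colour scale. Within a row the WT cells are darker than the KO cells, with *Dnajc6* at 0 CPM in each WT sample. Across rows the levels overlap, such as *Cacnb3* in WT sample S1 (7.38 CPM) and *Rnf39* in KO sample S6 (1.86 CPM). Dark KO cells are those of *Xkrx* in S6 (0.590 CPM) and *Crispld2* in S8 (0.990 CPM).

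Several of the genes are lineage markers of cells other than CD8+ T cells. *Cd22* was described above. *Cd4*, the coreceptor of helper T cells, was at 1.82, 6.63, 4.59 and 5.23 CPM in WT samples S1 to S4 and 15, 27.3, 7.26 and 8.02 CPM in KO samples S5 to S8. S6 was high, S7 and S8 lay just above the highest WT sample, S2, and the log2 ratio was 1.56. *Klrb1c*, the NK1.1 antigen of NK cells, was at 0, 0.105, 0.425 and 1.37 CPM in WT samples S1 to S4 and 5.42, 2.53, 5.34 and 2.01 CPM in KO samples S5 to S8. S5 and S7 were the higher KO samples.

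The other markers of those lineages are set beside them. For B cells, *Blk*, *Fcer2a* and *Cr2* were at 0 in all libraries, and *Ms4a1* was at 0 in KO. *Ighm* fell by 1.5 on the log2 scale, from 62.1 ± 15.4 to 21 ± 12.2 CPM (adjusted p = 0.00283, edgeR), and *Cd79a* was at 0.296 ± 0.366 and 2.06 ± 1.21 CPM (adjusted p = 0.0773). The summed level of the list, *Cd22* included, was 66.3, 71.1, 98.8 and 58.6 CPM in WT samples S1 to S4. Of this *Cd22* gave 1.19, 1.95, 4.59 and 6.00 CPM. In KO samples S5 to S8 the sum was 51.7, 47.3, 39.1 and 85.8 CPM, with 30.6, 15.1, 15.9 and 40.5 CPM from *Cd22*. The rule chose *Cd22* on these values, so the sum is not read as a B cell level. Of 12 markers beside *Cd22*, 1 fell, 3 were not called and 8 were not tested. For NK cells, *Ncr1* was at 0.0658 ± 0.132 and 0.389 ± 0.423 CPM, and none of 7 markers beside *Klrb1c* was called. The list's sum, *Klrb1c* included, ran from 91.1 to 124 CPM in WT and from 66.6 to 81.2 CPM in KO.

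For helper T cells, 3 of 6 markers beside *Cd4* passed the threshold for a rise, with *Cd40lg*, which met the conditions of the rule, among them. *Zbtb7b*, the factor of the CD4 lineage, went from 45 ± 8.02 to 101 ± 10 CPM (log2 fold change 1.19 ± 0.13 SE, adjusted p = 9.31e-06, edgeR). *Ctla4*, an inhibitory receptor also of activated CD8+ T cells, went from 283 ± 27.8 to 484 ± 108 CPM (log2 fold change 0.79 ± 0.12 SE, adjusted p = 0.000354). The third, *Cd40lg*, was at 2.29 ± 0.467 CPM in WT and 12.3 ± 4.94 CPM in KO. It met the conditions of the rule and was left out by name, so its values are a description and nothing is read from its call. *Foxp3*, of regulatory T cells, was at 1.12 ± 0.983 and 2.4 ± 1.2 CPM (adjusted p = 0.37). The list's sum ran from 311 to 384 CPM in WT and from 515 to 744 CPM in KO. Most of it was *Ctla4*, at 283 of a mean sum of 339 CPM in WT and 484 of 621 CPM in KO. It also includes *Cd4* and *Cd40lg*, which met the conditions of the rule, so it is not read as a helper T cell level. The part of CD4+ T cells among the sorted cells in these values was not tested.

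Myeloid markers moved the other way: 11 of 18 fell, none rose, 6 were not called and 1 was not tested, and their sum ran from 484 to 1170 CPM in WT and from 209 to 302 CPM in KO. *Lyz2* fell by 3.01 on the log2 scale, from 85.4 ± 44.4 to 10.6 ± 5.05 CPM (adjusted p = 9.03e-06, edgeR). Of the remaining lists, *H2-Aa* fell among 10 dendritic cell markers and *Hbb-bs* among 8 erythroid ones, *Pecam1* rose among 10 endothelial ones (23.1 ± 3.34 to 62.8 ± 6.36 CPM), and none of 12 fibroblast or 12 neutrophil and mast cell markers was called. The part of these cells in the near-silent genes' values was not tested.

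The KO samples did not share the 134 genes evenly. The highest KO value over the lowest had a median of 2.17 over the set (range 1.22 to 10.6) and of 1.63 over 8081 other genes in the same range of KO level, whose median KO mean was 14.2 CPM against 6.89 CPM. It was under 2 for 40.3% of the set and 71.6% of the other genes, and 4 or more for 9.70% and 4.48%. Among genes at 10 CPM or more in KO, *Gm14569* had the widest spread, at 1.30, 1.32, 0 and 0 CPM in WT and 3.80, 25.9, 14.5 and 28.9 CPM in KO, where S5 was the lowest. *Prss30*, a serine protease gene, was at 3.52, 4.68, 3.66 and 1.37 CPM in WT and 9.16, 21.9, 8.35 and 5.15 CPM in KO, highest in S6, and *Cd4* followed. *Rbpms*, an RNA-binding protein of muscle and retina, was at 0.511, 0.473, 0.765 and 0.601 CPM in WT and 15.7, 12, 6.43 and 8.58 CPM in KO. Its WT samples were almost equal, and S5 was the highest KO sample.

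The deepest library, S8, was the lowest KO sample for 63 of the 134 genes (47%) and the highest for 7 (5.22%). Among the 8081 other genes it was lowest for 29.2% and highest for 14%. With TMM-scaled totals S8 was lowest for 52 genes (38.8%). A gene of the set stood in S8 at a median 76.5% of its own KO mean, against 93.4% for the other genes. In S5, S6 and S7 these medians were 107%, 105% and 100.2% for the set. The highest value fell in S6 for 49 genes, in S5 for 45 and in S7 for 33. *Kdm1a* was lowest in S5 and highest, among KO samples, in S8. Depth, sample and level move together here, and their part in the spread was not tested.

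**Figure D5:**
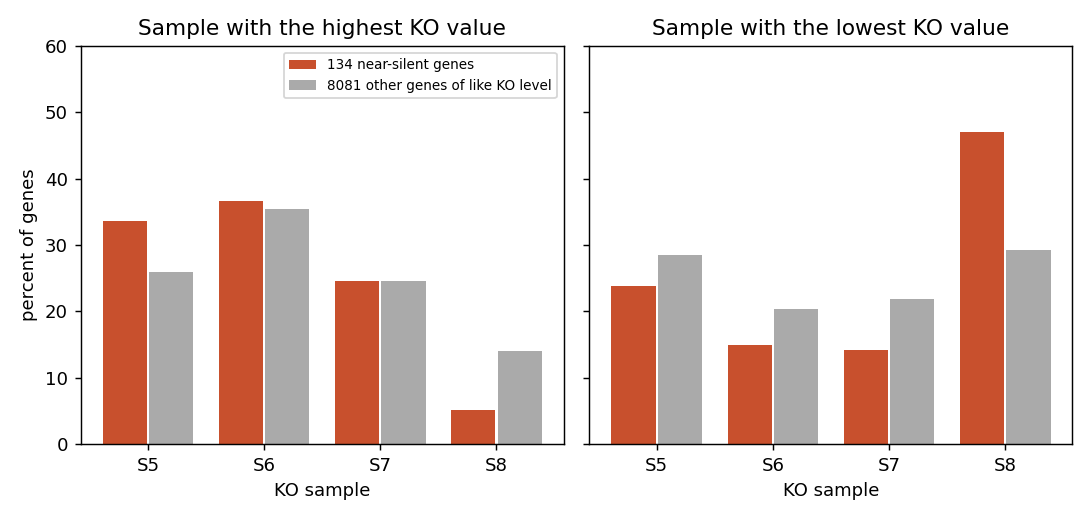
Percent of genes (vertical axis) whose highest KO value (left panel) or lowest KO value (right panel) fell in each KO sample (horizontal axis), for the 134 near-silent genes (orange) and 8081 other genes in the same range of KO level (grey). S8 holds the lowest value for 47% of the near-silent genes and 29.2% of the others.

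By annotation (GENCODE M21, GRCm38) 102 of the genes are protein coding (76.1%, against 80.2% of the 8081 other genes), 13 are long noncoding RNAs (9.70% against 5.04%), 11 are pseudogenes and 8 are unverified transcripts of the TEC class. They lie on every autosome and on X, with at most 11 on any chromosome (chromosome 1). Median exon length was 3677 bases, against 3529 in the other genes, and the median KO level per length was 1.86 RPKM against 4.34 RPKM. The highest levels per length were those of 2 short processed pseudogenes, *Gm12941* at 42.2 and *Gm7676* at 37.9 RPKM in KO, named here after their values were seen. In WT they were at 11.8 and 8.35 RPKM, above the 4.34 RPKM median KO level of the other genes. Near-silent therefore refers to CPM, and short genes of the set need not be low per length in WT.

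Part of the noncoding signal lies inside other genes. Of the 32 noncoding members 16 overlap a gene with a summed level above 2 CPM, and 10 lie inside one on the same strand. Of the 102 coding genes 14 overlap such a gene. *Gm38056* and *Gm37382* are inside *Plcl1*, *Gm43422* is inside *Tgfbr3* (12.5 to 139 CPM) and *Gm12941* is inside *Gm12940* (32.4 to 61.5 CPM), each on the same strand as a host that rose, and *Gm9947* is opposite *Msc*. On the same strand, reads of the inner gene and of its host cannot be told apart by strand. For *Gm9947* the strand setting of the counts matters, and it is not given in the sources used here. The levels of these 5 genes are therefore uncertain. *Gm16310*, inside *Mrps6* on the same strand, is uncertain too.

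Other neighbours were separate genes. Counting as neighbours only genes that rose and did not meet the conditions of the rule, 23 of the 134 genes (17.2%) lay within 50 kb of such a gene, 18 of them without overlap, against 835 of 15364 annotated tested genes (5.43%). For coding genes these shares were 12 of 102 (11.8%) and 591 of 11649 (5.07%), and for the 372 genes that rose outside the set 32 (8.60%). The pairs included *Vcan* and *Hapln1*, *Gstt1* and *Gstt3*, *Mcoln3* and *Mcoln2*, and *Mpzl2* and *Mpzl3*, 1171 bases apart, as given above. *Ffar1*, a fatty acid receptor 3838 bases from *Cd22*, was at 0 in WT and at 1.42 ± 0.549 CPM in KO. *Klrb1b*, 24491 bases from *Klrb1c*, rose from 10.5 to 41.3 ± 19 CPM (log2 fold change 2.01, adjusted p = 0.000295, edgeR), and *Cldnd1*, 8840 bases from *Gpr15*, from 56.2 to 102 ± 5.49 CPM (log2 fold change 0.88, adjusted p = 8.49e-05). Both genes of the pairs *Cdc42bpb* and *Amn*, 16550 bases apart, and *Fxyd7* and *Lgi4*, 7875 bases apart, belong to the set. *Amn*, which carries cobalamin uptake in gut and kidney, had a KO mean of 3.00 ± 0.721 CPM, the lowest of the 134.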

How the data were processed

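RNA was measured by bulk RNA-seq in 4 WT and 4 KO samples of sorted CD8+ TILs. The raw counts per gene were deposited by the authors, who per the labels used STAR 2.4.0e, featureCounts 1.5.0 and GENCODE vM23 annotation; the strand setting is not given in the sources used here. The table's columns are numbered 1 to 8 and were assigned to groups by the key of the study, without replicate numbers. CPM were computed from column totals, RPKM from merged exon lengths of GENCODE M21 (55154 of 55335 gene IDs matched). Genes outside the set were tested with edgeR 4.0.16 (R 4.3.3): low-count filter, TMM scaling, quasi-likelihood test, Benjamini-Hochberg adjustment over 15378 genes, fold change above 1.5 and adjusted p under 0.01. These p-values set the difference between the groups against the spread between samples of a group. That spread is between pools of 2 mice in WT and between single mice in KO. The script was tested on simulated data. Alternatives were DESeq2 1.42.0, DESeq2 size factors, no filter, GC offsets, an adjusted p of 0.05, other pseudocounts and each sample left out.

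The members and all gene lists were chosen with earlier results of these data known. Named members were the 12 with the highest mean KO level, the 8 with the highest log2 ratio and the 3 widest and 3 narrowest in KO spread at 10 CPM or more, those at 0 in all WT samples, all members of the lists, and those next to a limit of the rule. Named genes outside the set were *Kdm1a*, list genes that were called, genes beyond a limit, neighbours that rose, and reference genes of the lists chosen after their values were seen. The total of the WT libraries was 60051740 counts and of the KO libraries 69639525.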

Additional observations from a re-analysis of the deposited data

Results flagged for a closer look

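Gene levels within groups of 4 samples were compared as log2(CPM + 0.5). In 8 of 108 groups, the highest or lowest value stood apart from its neighbour by more of the range than Dixon's critical value allows. Chance flags about 1 in 20 groups, or 5.4 here. The share of the range on this log2 scale is given in parentheses, beside levels in CPM, from which it cannot be read directly. In KO, *Atp9a* was at 14.7 CPM in S8 and 20.4 to 21.8 CPM in the other samples (share 0.833), and *Lgals7* was at 2.25 CPM in S7 and 4.23 to 4.58 CPM in the others (0.882). *Kdm1a* was at 24.8 CPM in S5 and 31.9 to 32.6 CPM in the other KO samples (0.914). In WT, *Ltbp4* was at 2.10 CPM in S2 and 3.17 to 3.40 CPM in the others (0.851), and *Npas2* was at 0.680 CPM in S3 and 0 to 0.0526 CPM in the others (0.884). For *Tmeff2* in S2 (0.0526 CPM), *Hif3a* in S3 (0.255 CPM) and *Lgals7* in S2 (0.316 CPM) the other WT samples were at 0, so the share is 1 by construction and rests on few reads.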

How the results depend on the processing

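The set grew or shrank with the limits of the rule: 72 genes remained at a ratio of at least 5, and 86 at a KO mean of at least 5 CPM. TMM-scaled totals gave 144 genes, DESeq2 size factors 147 and totals without the 10 most counted genes 139, of which 134, 134 and 117 belonged to the 134. Leaving out each sample in turn gave 136 to 177 genes, with 118 to 133 shared. The median log2 ratio was 2.26 with a pseudocount of 0.1 CPM and 1.72 with 1 CPM; it was 1.88 to 2.06 with a sample left out. Of all genes tested, 447 rose and 306 fell; with a sample left out these counts were 347 to 452 and 199 to 303, the lowest without S2. The number that fell was 531 without the filter, 510 with DESeq2 and 551 at an adjusted p of 0.05, where 695 rose; the cause was not tested. The recruiter list fell from 3 calls to 2 without S1, S2, S4, S5 or S7. With a sample left out, 14 to 19 markers and 18 to 23 relatives were called. With all samples it was 18 markers, *Cd40lg* among them, and 19 relatives, *Sox4* among them. At these depths 1 read is under 0.1 CPM, and WT levels near the floor of 3 counts are not resolved. No paired analysis was possible because the table's columns carry no replicate numbers.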

Other observations

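Members outside the naming rule also held genes of known function, picked here after their values were seen and described without a test. *Tox2*, a relative of the exhaustion factor TOX, was at 0.511, 0, 0 and 1.03 CPM in WT samples S1 to S4 and 4.51, 4.72, 6.26 and 3.60 CPM in KO samples S5 to S8. WT had reads of it in S1 and S4 alone, and the KO values were even. *Aqp3*, a water and glycerol channel, was at 6.52, 1.32, 5.27 and 2.66 CPM in WT and 8.32, 16.6, 16 and 11.4 CPM in KO, with the lowest KO sample, S5, close to the highest WT sample. *Adra2b*, an adrenergic receptor, was at 6.47, 1.79, 3.74 and 0.429 CPM in WT and 12.1, 18.1, 12.8 and 7.49 CPM in KO, and *Galr3*, a galanin receptor, was at 0.965, 0.737, 0.765 and 1.03 CPM in WT and 6.13, 1.52, 2.92 and 2.48 CPM in KO, so that receptors coupled to G proteins were not limited to the 3 on the list. *Fcrl1*, an Fc receptor-like protein of B cells, was at 0.965, 0.842, 0 and 1.80 CPM in WT and 4.90, 2.95, 3.59 and 2.71 CPM in KO.

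*Gsdme*, a gasdermin that forms pores in dying cells, was at 1.36, 0.263, 1.02 and 1.12 CPM in WT and 3.35, 4.22, 9.18 and 2.34 CPM in KO. *Yes1*, a SRC-family kinase, was at 1.19, 3.21, 4.08 and 1.89 CPM in WT and 10.1, 9.36, 9.43 and 7.23 CPM in KO, and *Bcl6b*, a relative of BCL6 known from memory CD8+ T cells, was at 2.04, 1.95, 4.93 and 1.54 CPM in WT and 10.5, 8.43, 9.94 and 6.47 CPM in KO. Both had KO values within a narrow range. *Peg10*, an imprinted gene of retrotransposon origin, was at 0, 0.158, 0.170 and 0.601 CPM in WT and 2.84, 6.92, 1.5 and 2.08 CPM in KO, and *Trim66* was at 0.794, 0.263, 0 and 1.29 CPM in WT and 1.55, 9.53, 2.34 and 1.98 CPM in KO, each highest in S6.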
